A study of Homo sapiens with 24 samples.

Results

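PC9 cells, an established human line of non-small cell lung cancer, were compared after 24 h and after 6 h in asparagine-free RPMI 1640 with 200 nM ISRIB. The 6 libraries were chosen by their labels from 24 in the series, 3 at each time. New medium was given after rinses with PBS, 24 h or 6 h before a shared endpoint, so time since the change differed while the harvest did not, per the labels' protocols. The other groups used were cells without asparagine under 0.004% DMSO as vehicle (24 h and 6 h) and cells with asparagine under 200 nM ISRIB (24 h and 6 h), 3 libraries each. Every group, those with asparagine included, received fresh medium at the change. Total RNA of whole dishes was sequenced, in which fewer cells of a type and less RNA per cell cannot be told apart. The replicates were biological triplicates of 1 line per the series' design text; what separated them was not stated, so p-values measure the spread between these libraries.

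Asparagine is made from aspartate by asparagine synthetase, the product of ASNS. When an amino acid runs short, uncharged transfer RNA activates the kinase GCN2, which phosphorylates the initiation factor eIF2, slows general translation and favours translation of the transcription factor ATF4. ATF4 then raises ASNS, amino acid transporters and transfer RNA synthetases, a programme called the integrated stress response. ISRIB stabilises eIF2B, the exchange factor that phosphorylated eIF2 inhibits, and so blunts this programme.

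The 6 libraries held 16737384 to 23271470 gene-assigned reads. The 7 epithelial markers that fit the labelled cell type summed to 10500 to 11100 CPM (reads scaled to a common library total) at 24 h, against 10700 to 12100 CPM at 6 h. The 4 markers of alveolar lineage summed to 0.516 to 0.717 CPM at 24 h, against 0.0584 to 0.315 CPM at 6 h, which is near 0. Sums of the 5 leukocyte markers were 1.35 to 1.43 CPM at 24 h, against 1.81 to 3.73 CPM at 6 h. Sums of the 6 fibroblast markers, of which LUM was at 0, were 9.73 to 14.3 CPM at 24 h, against 4.97 to 7.57 CPM at 6 h, nearly all of it COL1A1 (9.62 to 14.1 CPM at 24 h, against 4.56 to 7.15 CPM at 6 h), while DCN was at 0 at 24 h, against 0.0525 to 0.234 CPM at 6 h. The part of these low marker levels in the results was not tested. Libraries differed in how counts followed transcript GC content, with slopes of 0.207, -0.048 and 0.153 (log2 per 10 GC points) at 24 h, against 0.057, 0.088 and -0.353 at 6 h, so replicate 3 at 6 h stood apart. With asparagine under ISRIB, replicate 3 of 24 h stood at -0.383 and replicate 1 of 6 h at -0.189. Replicates 1 and 3 of 24 h under vehicle without asparagine stood at -0.176 and -0.172. Log2 changes of genes correlated with GC content at 0.232 for the time change. The correlation was 0.421 for its difference from that under vehicle and 0.373 for its difference from that with asparagine. The part of this trend in the results was not tested beyond the corrected and leave-out fits given in the closing section.

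Of 17409 genes tested, 2523 (14.5%) rose and 3099 (17.8%) fell at 24 h against 6 h, at an adjusted p below 0.05 in edgeR's quasi-likelihood test with Benjamini-Hochberg adjustment. "Rose" and "fell" are used below for genes past that threshold. At least 2-fold changes were seen in 685 of those that rose and 740 of those that fell. Upper-quartile scaling gave 3596 genes that rose and 2315 that fell, with a median log2 change of all genes of 0.11 in place of 0.005, so the direction of small changes depends on the scaling. Fold changes are given on the log2 scale with their SE (n = 3 libraries per group), and levels as CPM scaled by TMM, which compare libraries and not genes of different length.

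Most core genes of the stress response were lower at 24 h than at 6 h. Of 12 core genes, 7 fell and 2 rose, with a median log2 change of -0.62 (range -2.04 to 0.99), where 17.8% of all genes fell and 14.5% rose. ASNS (ENSG00000070669.16, GRCh38 chromosome 7, 97852118 to 97872542, minus strand) was at 18.0, 18.8 and 17.2 CPM at 24 h, against 28.2, 22.8 and 28.9 CPM at 6 h. Every 24 h library lay below every 6 h library, and ASNS fell by 0.57 ± 0.10 (edgeR adjusted p = 2.4e-04). ATF4, the transcription factor at the centre of the response, was at 305, 301 and 275 CPM at 24 h, against 474, 552 and 652 CPM at 6 h. Its groups did not overlap either, and it fell by 0.93 ± 0.10 (edgeR adjusted p = 4.5e-07). STC2, which encodes the secreted glycoprotein stanniocalcin 2, was at 104, 102 and 92.8 CPM at 24 h, against 351, 457 and 419 CPM at 6 h, a level 4.11-fold lower at 24 h. PPP1R15A, a subunit of the phosphatase that acts on eIF2, was at 120, 147 and 80.3 CPM at 24 h, against 294, 476 and 481 CPM at 6 h (log2 change -1.85 ± 0.24). SLC7A11, the cystine importer, was at 194, 250 and 203 CPM at 24 h, against 439, 460 and 677 CPM at 6 h (log2 change -1.28 ± 0.15). Means of these named genes were also lower at 24 h under ISRIB with asparagine. ASNS, ATF4 and STC2 averaged 21.8, 390 and 163 CPM at 24 h there, against 27.4, 632 and 504 CPM at 6 h. PPP1R15A and SLC7A11 averaged 48.2 and 470 CPM at 24 h there, against 195 and 634 CPM at 6 h. The time change differed between the media in 1 of the 12 core genes, SLC7A11, where 2.67% of all genes differed.

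The core genes that rose were TRIB3, a pseudokinase that restrains ATF4 activity, and VLDLR, a lipoprotein receptor. TRIB3 was at 108, 87.5 and 108 CPM at 24 h, against 84.1, 77.1 and 62.4 CPM at 6 h (log2 change 0.44 ± 0.13, edgeR adjusted p = 0.011). The groups did not overlap, but the call was lost without replicate 1 of 24 h (0.39), without replicate 3 of 6 h (0.33) and in a fit to both groups alone (0.45). VLDLR was scarce, at 1.24, 1.68 and 1.28 CPM at 24 h, against 0.796, 0.649 and 0.648 CPM at 6 h (log2 change 0.99 ± 0.26). Under ISRIB with asparagine, TRIB3 and VLDLR averaged 86.6 and 2.14 CPM at 24 h, against 82.0 and 0.989 CPM at 6 h. ATF3, another stress-induced transcription factor, fell by 0.88 ± 0.24, a call lost without replicate 3 of 24 h (-0.67) or replicate 2 of 6 h (-0.69). SESN2, an inhibitor of mTORC1, fell by 0.67 ± 0.21, a call lost without replicate 2 of 24 h (-0.55), without replicate 2 of 6 h (-0.54) and with upper-quartile scaling (-0.57). ATF3 and SESN2 averaged 3.79 and 6.37 CPM at 24 h under ISRIB with asparagine, against 8.55 and 14.3 CPM at 6 h. DDIT3, which encodes CHOP, DDIT4, another brake on mTORC1, and CHAC1, which degrades glutathione, did not pass the test, with log2 changes of 0.17 ± 0.16, 0.78 ± 0.30 and -0.07 ± 0.65 and edgeR adjusted p of 0.41, 0.0503 and 0.94. DDIT4 did pass in 7 other settings, one of them the omission of replicate 2 of 24 h (1.02).

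ATF4 binds the amino acid response element, searched as TGATGNAA on both strands in the 250 bases before the RefSeq start. It was found in 5 of the 31 ATF4 and CHOP targets with a promoter sequence (16.1%), against 3.19% of all 27305 promoters. The stretches of ASNS, at chr7:97872439-97872506 on the minus strand, and ATF3, at chr1:212565186-212565253 on the plus strand, show a known target of the response and a second core gene. They are from RefSeq on GRCh38.p14, read 5′ to 3′ on the strand of the gene, with the match in capitals. A match is a description of letters and not of binding.
ASNS: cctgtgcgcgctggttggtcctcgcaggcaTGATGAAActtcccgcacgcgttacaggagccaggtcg
ATF3: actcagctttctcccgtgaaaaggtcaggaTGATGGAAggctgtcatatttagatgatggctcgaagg

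The wider list of 40 ATF4 and CHOP targets, which holds 11 of the 12 core genes, had 17 members that fell and 6 that rose (median -0.42, against 0.005 for all genes). For this list and those below, the shares over all genes were 17.8% that fell and 14.5% that rose. TNFRSF10B, the death receptor DR5, was at 50.2, 49.7 and 48.5 CPM at 24 h, against 99.6, 124 and 133 CPM at 6 h (log2 change -1.27 ± 0.12). PSPH, the last enzyme of serine synthesis, and HERPUD1, which serves degradation of proteins from the endoplasmic reticulum, rose by 0.38 ± 0.08 and 0.41 ± 0.11. Of 17 amino acid transporters 10 fell and 2 rose, or 1 rose without replicate 1 of 24 h or replicate 3 of 6 h. One that rose was near the floor, at 0.519, 0.592 and 0.614 CPM at 24 h, against 0.159, 0.0541 and 0.0648 CPM at 6 h. It may have passed the filter on counts only through the 24 h group, so its rise is no independent support for the count. SLC1A3, a glutamate and aspartate carrier, was at 9.98, 9.71 and 10.3 CPM at 24 h, against 17.0, 18.5 and 21.5 CPM at 6 h, without overlap. SLC38A2, a carrier of neutral amino acids, fell by 0.76 ± 0.13, and SLC1A4, which carries alanine, serine and cysteine, rose by 0.58 ± 0.17, a call lost without replicate 1 of 24 h (0.45) or replicate 3 of 6 h (0.51). Of 22 enzymes that make amino acids or handle one-carbon units 7 fell, among them MTHFD2, of the mitochondrial folate pathway, by 0.63 ± 0.11, while 2 rose. With upper-quartile scaling 6 fell and 5 rose, and 1 rose without replicate 1 or 3 of 24 h or replicate 3 of 6 h. Of 18 aminoacyl-tRNA synthetases 7 fell and 2 rose. That balance turned to 3 that fell and 5 that rose with upper-quartile scaling, and 3, 4 and 3 fell without replicate 1 of 24 h, replicate 3 of 24 h and replicate 3 of 6 h. After GC correction 4 rose, 1 rose without any one of the 24 h libraries or replicate 2 of 6 h, and 0 rose without replicate 3 of 6 h.

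Of the gene lists, the inflammatory one had the lowest median change. All 20 tested members of the inflammatory and NF-kB list, of 25 listed, fell, with a median of -2.62, where 17.8% of all genes fell. In all 20 the groups did not overlap, where 20.7% of all genes were lower at 24 h without overlap. NF-kB is a family of transcription factors held in the cytoplasm by inhibitors such as the product of NFKBIA, and it drives chemokines, cytokines and its own inhibitors. CXCL8, which encodes interleukin 8, was at 5.99, 8.63 and 5.91 CPM at 24 h, against 289, 551 and 1360 CPM at 6 h. It was 107-fold lower at 24 h (log2 change -6.74 ± 0.56, edgeR adjusted p = 2.1e-08). PTGS2, the inducible cyclooxygenase, was at 10.9, 16 and 7.31 CPM at 24 h, against 176, 188 and 365 CPM at 6 h, 21.3-fold lower at 24 h (-4.41 ± 0.33). TNFAIP3, the A20 ubiquitin editor that restrains NF-kB, was at 41.2, 53.6 and 28.6 CPM at 24 h, against 462, 703 and 921 CPM at 6 h, 16.9-fold lower at 24 h (-4.08 ± 0.35). For these 3 genes replicate 3 was the highest 6 h library, and without it the log2 changes were -5.94, -3.99 and -3.82. NFKBIA was at 36.2, 33.6 and 34.8 CPM at 24 h, against 110, 146 and 133 CPM at 6 h (log2 change -1.89 ± 0.16), and IL18 was at 12.4, 17.1 and 11.7 CPM at 24 h, against 39.6, 47.9 and 51.9 CPM at 6 h (-1.76 ± 0.14). CCL20, a chemokine, had 0 counts in the 24 h libraries, against 132 counts in the 6 h libraries together, at least 53.8-fold lower at 24 h with a floor of 3 counts over the group. It could pass the filter on counts only through groups where it was higher, so its fall is no independent support for the count of 20. The list's 20 falls stood in every scaling, GC-corrected, blocked and leave-out fit run.

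The kappa B core, searched as GGANNTTCC on both strands after the data were seen, was found in 9 of the 16 inflammatory genes with a promoter sequence (56.2%), against 3.88% of all promoters. The stretches shown are of CXCL8 at chr4:73740448-73740516 (plus strand), NFKBIA at chr14:35404792-35404860 (minus strand) and TNFAIP3 at chr6:137867162-137867230 (plus strand, with the match on the other strand). Among members that fell and hold a match, these had the smallest edgeR adjusted p for the time change, an order taken from these same data. The match is in capitals, again from RefSeq on GRCh38.p14.
CXCL8: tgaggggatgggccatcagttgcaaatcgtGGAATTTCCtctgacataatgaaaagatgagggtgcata
NFKBIA: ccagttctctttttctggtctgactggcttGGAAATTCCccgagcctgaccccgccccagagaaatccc
TNFAIP3: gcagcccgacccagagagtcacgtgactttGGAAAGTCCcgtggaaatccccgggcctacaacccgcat

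The level of CXCL8 was also lower at 24 h than at 6 h in the other groups. It averaged 13.5 CPM at 24 h and 414 CPM at 6 h under vehicle without asparagine, and 9.88 CPM at 24 h and 419 CPM at 6 h under ISRIB with asparagine. Its differences of the time change did not pass the test, at -1.81 ± 0.65 by drug and -1.34 ± 0.65 by medium (edgeR adjusted p = 0.09 and 0.28). Of the 20 members 1 differed by drug and 1 by medium, IL18 in both cases (-0.82 ± 0.20 and -1.14 ± 0.20). Over all genes 7.59% differed by drug and 2.67% by medium, so these counts are near the general share. By drug that call was lost after GC correction (-0.55) and without replicate 1 of 24 h with ISRIB (-0.75). By medium it was lost in a fit to the groups alone.

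Genes that growth factor signalling induces fell beside them. Of 28 MAPK feedback and immediate early genes 20 fell and 0 rose (median -0.76), where 17.8% of all genes fell and 14.5% rose. FOSL1, an AP-1 subunit, was at 82.0, 91.3 and 59.5 CPM at 24 h, against 362, 498 and 395 CPM at 6 h, and fell by 2.43 ± 0.28. MYC was at 186, 220 and 158 CPM at 24 h, against 343, 434 and 376 CPM at 6 h (log2 change -1.03 ± 0.14). SPRY4 and DUSP6, which damp the ERK pathway, fell by 1.54 ± 0.14 and 1.10 ± 0.14. In the EGFR family 7 of 11 genes fell and 2 rose, or 1 rose without replicate 3 of 6 h. The ligand EREG was at 7.63, 12.5 and 6.02 CPM at 24 h, against 58.1, 109 and 187 CPM at 6 h, 13.5-fold lower at 24 h. HBEGF and AREG, also ligands, were 10.8-fold and 8.26-fold lower at 24 h, and TGFA fell by 1.52 ± 0.14. The receptor EGFR fell too, by 0.91 (edgeR adjusted p = 1.8e-05). It was at 1210 to 1400 CPM at 24 h, against 1890 to 2560 CPM at 6 h, here without TMM. The receptor ERBB3 was at 105, 110 and 121 CPM at 24 h, against 77.2, 72.0 and 72.4 CPM at 6 h, and rose by 0.60 ± 0.07. With asparagine under ISRIB, TGFA and ERBB3 averaged 117 and 91.7 CPM at 24 h and 333 and 62.0 CPM at 6 h. By medium 0 of the 11 genes differed, or at most 2 were lower with a library left out. Only 2.67% of all genes differed by medium, so a count of 0 says little in so short a list.

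Of 18 genes of the YAP and TGF-beta response 15 fell and 0 rose (median -0.76). ANKRD1, a target of the YAP coactivator, was at 5.67, 7.64 and 3.07 CPM at 24 h, against 50.1, 89.2 and 101 CPM at 6 h, 14.6-fold lower at 24 h. THBS1, a matrix glycoprotein, was at 443, 571 and 314 CPM at 24 h, against 1440, 2210 and 2660 CPM at 6 h (log2 change -2.25 ± 0.27). In both genes the 24 h libraries all lay below the 6 h libraries. With asparagine under ISRIB, ANKRD1 and THBS1 averaged 4.69 and 378 CPM at 24 h and 42.3 and 1410 CPM at 6 h. By medium 0 of the 18 genes differed, while 4 were lower after GC correction. With 2.67% of all genes called by medium, a count of 0 says little here. The immune checkpoint ligands CD274 and PDCD1LG2 fell by 2.72 ± 0.28 and 3.02 ± 0.28. They were the 2 that fell among the 7 antigen presentation genes tested, of 13 listed (28.6%, against 17.8% of all genes). In that list 0 rose, against 14.5% of all genes. Among other large falls were SERPINB2, a serpin (76.8-fold lower at 24 h), CXCL1, a chemokine (38.3-fold), BIRC3, an inhibitor of apoptosis (15.9-fold), EDN1, the endothelin precursor (12.6-fold), and TRAF1, a TNF receptor adaptor (11.8-fold). SERPINB2 was near the floor at 24 h, at 0.28, 0.345 and 0.279 CPM, against 11.1, 19.5 and 40.3 CPM at 6 h. It may have passed the filter on counts only through groups where it was higher, so the size of its fold is uncertain. CDH5, an endothelial cadherin, was 12-fold lower at 24 h, and the 4 endothelial markers, of which KDR was at 0, summed to 4.24 to 5.46 CPM at 24 h, against 29.5 to 56.0 CPM at 6 h, with CDH5 making up most of the sum.

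**Figure D1:**
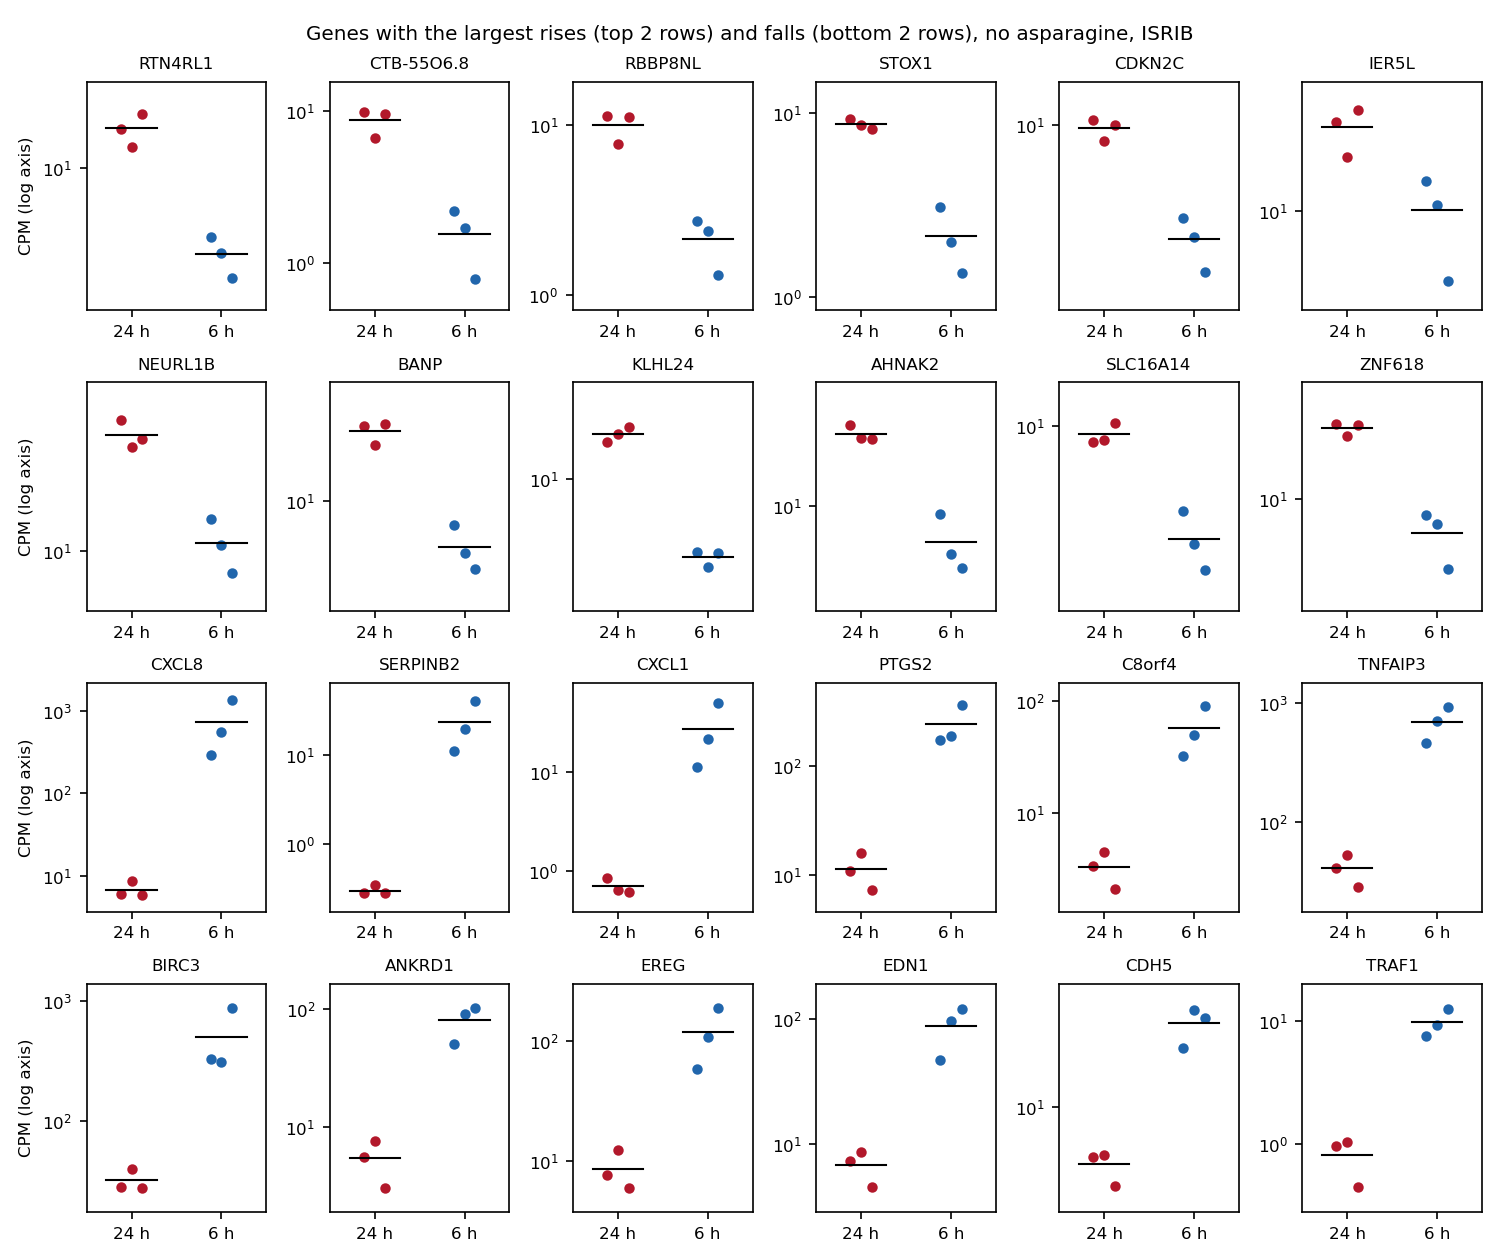
TMM-scaled CPM on a log axis in the 3 libraries at 24 h (left) and the 3 at 6 h (right), without asparagine with ISRIB, for the 12 largest rises (upper 2 rows) and 12 largest falls (lower 2 rows) under the naming rule; lines are means. RTN4RL1 rose by 2.63 on the log2 scale, and CXCL8 lay at 5.91 to 8.63 CPM at 24 h, against 289 to 1360 CPM at 6 h.

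The rises were smaller. RTN4RL1, a homologue of the Nogo receptor, was at 17.9, 13.7 and 22.3 CPM at 24 h, against 3.66, 2.92 and 2.01 CPM at 6 h, and was 6.19-fold higher at 24 h (edgeR adjusted p = 1.6e-07). CDKN2C, the CDK4 and CDK6 inhibitor p18, was at 10.7, 8.23 and 9.98 CPM at 24 h, against 3.18, 2.49 and 1.62 CPM at 6 h (log2 change 1.97 ± 0.23). KLHL24, a ubiquitin ligase adaptor, was at 14.8, 16.1 and 17.4 CPM at 24 h, against 4.62, 3.95 and 4.54 CPM at 6 h (1.88 ± 0.23). In all 3 the 24 h libraries lay above the 6 h libraries. NEURL1B, BANP, RBBP8NL, STOX1, AHNAK2, SLC16A14 and ZNF618 rose by 1.69 to 2.21, CTB-55O6.8 (named by its clone identifier, annotated as protein-coding) by 2.46 ± 0.27 and IER5L by 1.92 ± 0.41, or 1.51 without replicate 3 of 6 h.

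Nutrient-response genes were among those that rose. FOXO factors are active when growth signals are low, and MondoA responds to glucose. Of 18 genes in a list of such factors and their targets, 8 rose and 2 fell (median 0.70), where 14.5% of all genes rose and 17.8% fell. TSC22D3, a FOXO target, was at 6.15, 5.52 and 8.64 CPM at 24 h, against 2.07, 2.87 and 1.43 CPM at 6 h (log2 change 1.65 ± 0.24). INSR, the insulin receptor, and FOXO4 rose by 0.90 ± 0.12 and 0.99 ± 0.16, while ARRDC4, which curbs glucose uptake, and FOXO1 fell by 0.82 ± 0.11 and 0.64 ± 0.14. KLHL24 and TSC22D3 averaged 16.8 and 5.49 CPM at 24 h and 4.68 and 1.55 CPM at 6 h with asparagine under ISRIB. INSR and FOXO4 averaged 9.86 and 8.86 CPM at 24 h and 6.21 and 4.77 CPM at 6 h there. ARRDC4 and FOXO1 averaged 13.9 and 11.1 CPM at 24 h and 17.5 and 13.4 CPM at 6 h. In the difference by medium 0 of the 18 genes were higher and 0 lower, where 0.718% and 1.95% of all genes were. Of 13 cytosolic heat shock genes 6 rose and 0 fell, while 2 fell after GC correction or without replicate 1 of 6 h and 1 fell without replicate 2 of 6 h. HSPA8, the constitutive HSP70, was at 2710, 2780 and 2930 CPM at 24 h, against 1660, 1330 and 1630 CPM at 6 h (log2 change 0.86 ± 0.13). Of 10 replication-dependent histone genes 5 rose and 0 fell (median 0.78), with HIST1H2BD at 4.67, 3.99 and 4.02 CPM at 24 h, against 2.07, 2.11 and 1.75 CPM at 6 h; these near-identical copies may share reads.

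**Figure D2:**
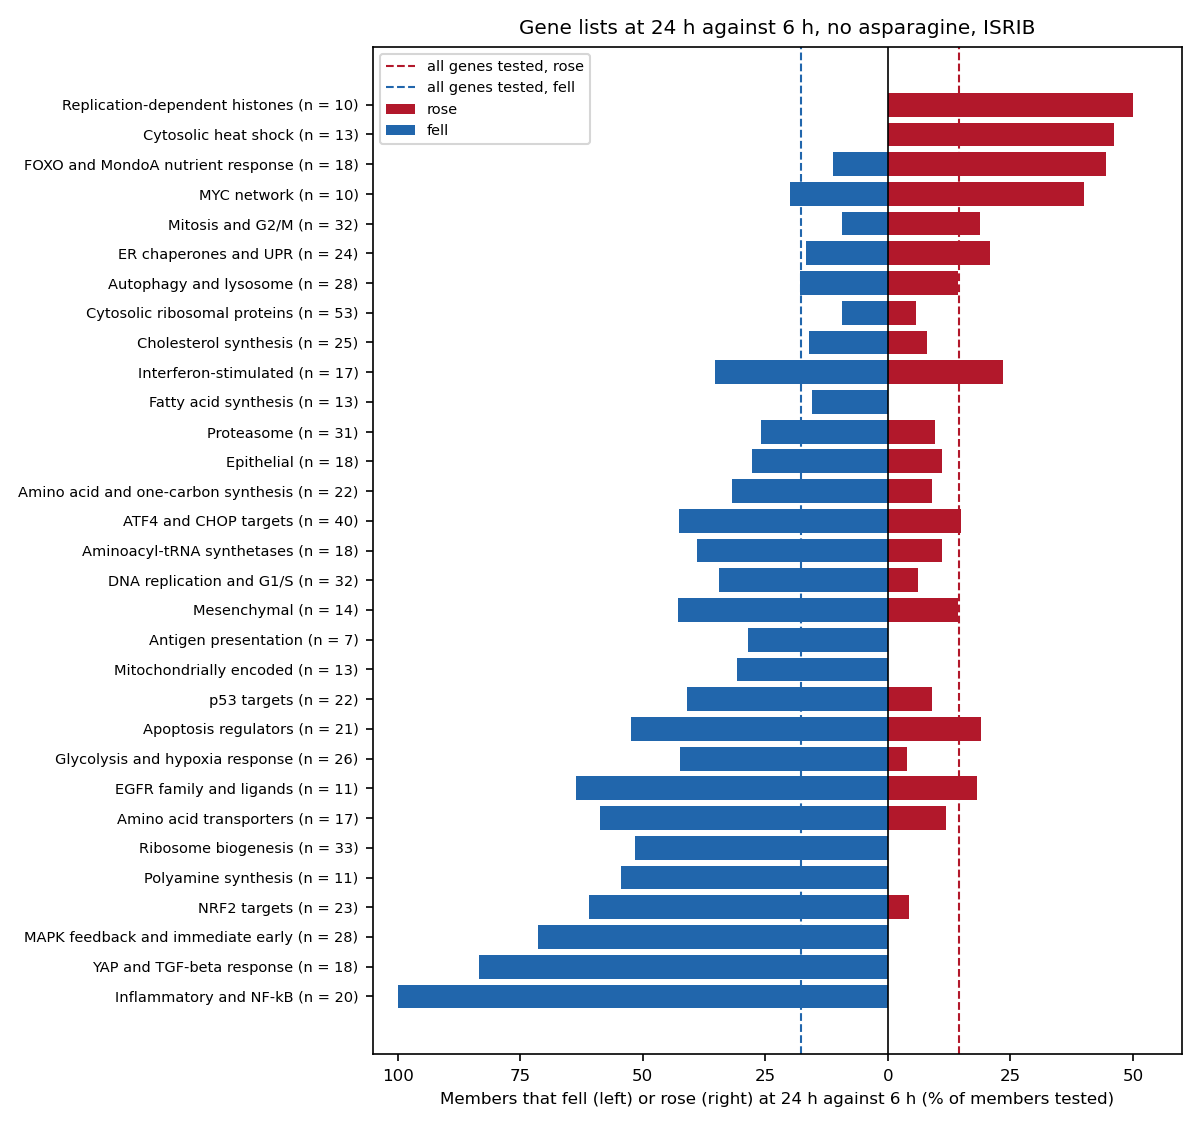
Share (%) of tested members that fell (left, blue) or rose (right, red) at 24 h against 6 h, without asparagine with ISRIB, in 31 gene lists (the 12 core stress genes are not drawn as a list); dashed lines are the shares over all genes, 17.8% fell and 14.5% rose. The inflammatory list stands at 100% fell.

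Growth genes moved in several directions, where 14.5% of all genes rose and 17.8% fell. Of 33 ribosome biogenesis genes 17 fell and 0 rose (median -0.34; 3 rose with upper-quartile scaling and 1 without replicate 2 of 24 h or of 6 h), with NOP16 at 36.2, 35.9 and 30.6 CPM at 24 h, against 51.3, 58.1 and 55.8 CPM at 6 h. WDR43 and NOLC1, nucleolar proteins, fell by 0.89 ± 0.13 and 0.67 ± 0.11. Of 32 DNA replication genes 11 fell and 2 rose, or 7 fell without replicate 3 of 6 h or with upper-quartile scaling (4 rose), and ORC6, of the origin recognition complex, fell by 0.72 ± 0.09. Of 32 mitosis genes 6 rose (18.8%) and 3 fell (9.38%), which is near or below the shares over all genes. KIF20A, a mitotic kinesin, was at 219, 182 and 192 CPM at 24 h, against 130, 111 and 105 CPM at 6 h (log2 change 0.78 ± 0.13). In that list 11 rose with upper-quartile scaling and 12 after GC correction, and 5 fell without replicate 1 or 2 of 6 h. Of 11 polyamine genes 6 fell and 0 rose, among them the antizyme inhibitor AZIN1 by 0.98 ± 0.12. Of 53 cytosolic ribosomal protein genes 5 fell (9.43%) and 3 rose (5.66%), both below the shares over all genes. These counts turned to 3 and 10 with upper-quartile scaling. Of 31 proteasome genes 8 fell (25.8%) and 3 rose (9.68%), which turned to 5 and 7. Without replicate 1 or 2 of 6 h, 1 and 7 ribosomal protein genes rose. Without replicate 1 of 24 h, replicate 2 of 6 h and replicate 3 of 6 h, 1, 5 and 0 proteasome genes rose. After GC correction 5 rose in each of these lists. Of 13 mitochondrially encoded genes 4 fell, with MT-ND1 at -0.79 ± 0.11, and 1 fell without replicate 1 of 24 h, without replicate 3 of 6 h or with upper-quartile scaling.

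More apoptosis regulators and p53 targets fell than rose, where 17.8% of all genes fell and 14.5% rose. Of 21 apoptosis regulators, a list of genes that promote and genes that oppose cell death, 11 fell and 4 rose (median -0.62). Without replicate 3 of 24 h 2 rose. CFLAR, a caspase-8 inhibitor, was at 38.0, 41.5 and 33.6 CPM at 24 h, against 74.4, 87.1 and 108 CPM at 6 h, and BCL2, an anti-apoptotic protein, was at 8.35, 9.07 and 8.76 CPM at 24 h, against 4.30, 3.52 and 3.44 CPM at 6 h. The first fell by 1.25 ± 0.13 and the second rose by 1.21 ± 0.18, both without overlap. The other members that rose promote apoptosis: HRK by 1.14 ± 0.20, BCL2L11 by 0.46 ± 0.12 and BMF, whose groups overlapped, by 0.90 ± 0.32. BID, which also promotes apoptosis, fell by 0.78 ± 0.09. Of 22 p53 targets 9 fell and 2 rose, with CDKN1A, the CDK inhibitor p21, at -2.26 ± 0.23 and DDB2, a DNA repair factor, at 0.58 ± 0.08. Of 26 glycolysis and hypoxia genes 11 fell and 1 rose (3 with upper-quartile scaling, 2 without replicate 1 of 6 h), with HK2, a hexokinase, at -0.95 ± 0.12. Of 17 interferon-stimulated genes 6 fell and 4 rose, or 3 fell without replicate 3 of 24 h or of 6 h. The epithelial list of 18 had 5 that fell and 2 that rose, and the mesenchymal list of 14 had 6 and 2. In the epithelial list 9 fell after GC correction, 3 fell without replicate 2 of 6 h, and 1 rose without replicate 1 or 3 of 24 h or of 6 h. In the mesenchymal list 1 rose after GC correction and without replicate 1 of 24 h or replicates 2 or 3 of 6 h.

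The remaining lists had few members that moved, or members that moved both ways. Of 24 genes of endoplasmic reticulum chaperones and the unfolded protein response 5 rose (20.8%) and 4 fell (16.7%). Over all genes 14.5% rose and 17.8% fell. In that list 3 rose without replicate 1 of 24 h or replicate 3 of 6 h, and 7 fell without replicate 1 of 6 h. ERN1, the sensor kinase IRE1, was at 13.7, 13 and 12.5 CPM at 24 h, against 22.1, 24.3 and 27.0 CPM at 6 h, and fell by 0.90 ± 0.10, while the chaperone DNAJB9 rose by 0.58 ± 0.13. Of 28 autophagy and lysosome genes 5 fell (17.9%) and 4 rose (14.3%), near the shares over all genes. These counts turned to 3 and 6 with upper-quartile scaling, while 3 fell without replicate 3 of 24 h and 8 after GC correction. GABARAPL1, which coats autophagosomes, was at 31.2, 31.6 and 26.1 CPM at 24 h, against 75.1, 101 and 105 CPM at 6 h (log2 change -1.65 ± 0.12). Of 10 MYC network genes 4 rose and 2 fell, or 2 rose without replicate 1 of 24 h, with MXD3, a partner of MAX that opposes MYC, at 1.30 ± 0.18. Of 13 fatty acid synthesis genes 2 fell and 0 rose (4 and 1 after GC correction), the 2 being ME1 and ACLY (-0.39 ± 0.08), the enzyme that makes cytosolic acetyl-CoA. In the promoters, the sterol element TCACNCCAC stood in 1 of 18 cholesterol genes (5.56%, against 0.875% of all), the E2F site TTTGGCGC in 3 of 27 DNA replication genes (11.1%, against 0.553%) and the cell cycle element TTTGAA in 12 of 26 mitosis genes (46.2%, against 13.6%), each searched on both strands.

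**Figure D3:**
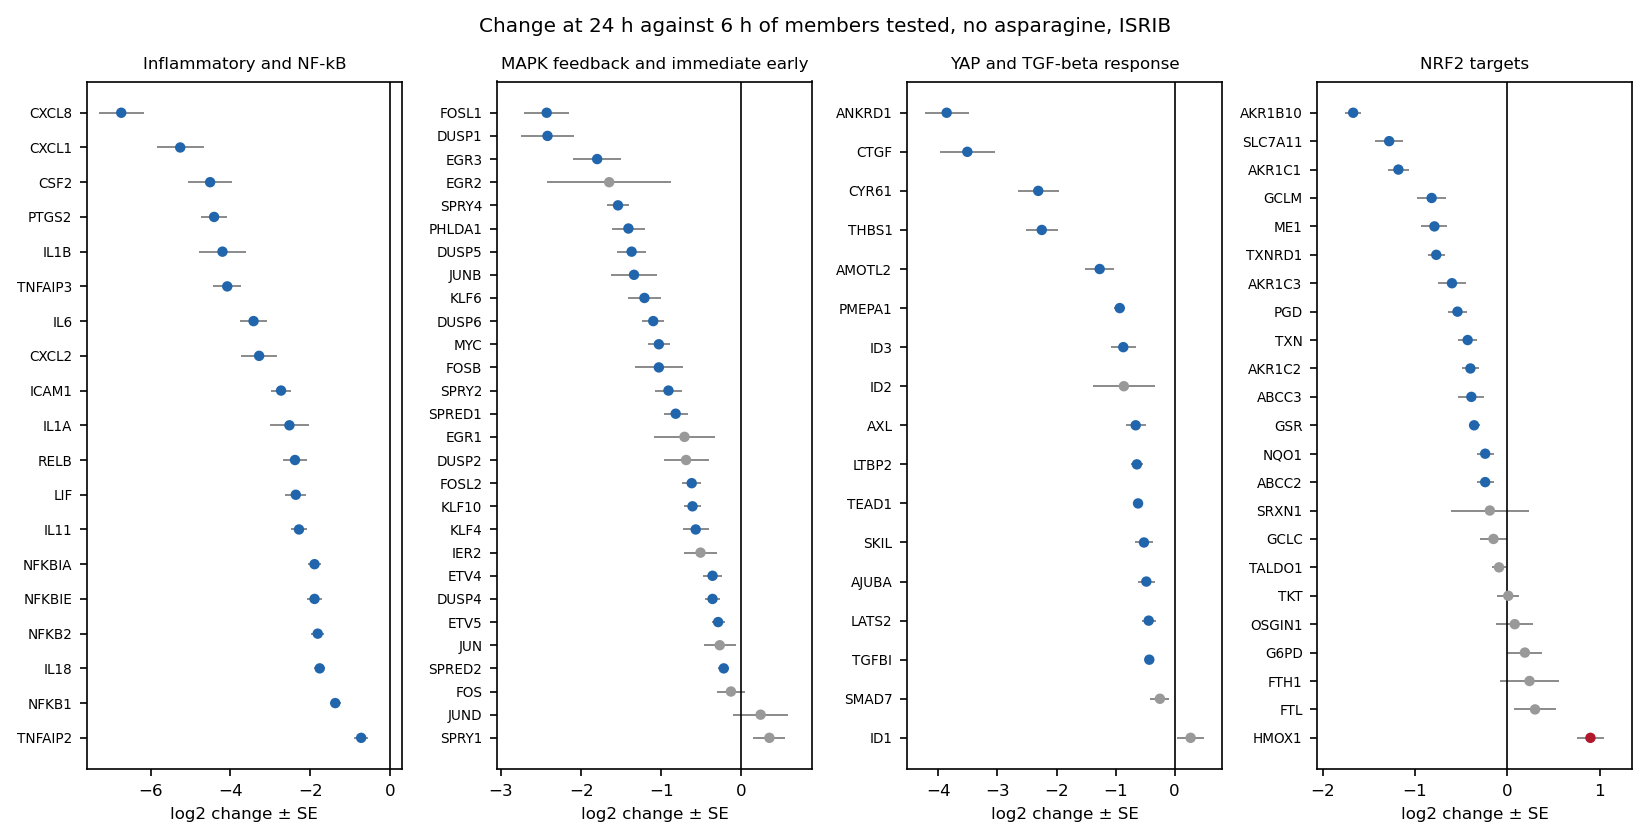
Log2 change at 24 h against 6 h ± SE for tested members of 4 lists (inflammatory and NF-kB without CCL20, MAPK feedback and immediate early, YAP and TGF-beta response with 17 of 18 drawn, NRF2 targets); blue fell, red rose, grey did not pass. In the first 3 lists no member drawn is red, and in the fourth HMOX1 is.

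Of 23 NRF2 targets, the genes of antioxidant and detoxifying enzymes, 14 fell and 1 rose (median -0.36), where 17.8% of all genes fell and 14.5% rose. AKR1B10, an aldo-keto reductase, was at 175, 170 and 182 CPM at 24 h, against 498, 594 and 590 CPM at 6 h, 3.19-fold lower at 24 h (log2 change -1.67 ± 0.09). AKR1C1, a relative that reduces steroids, was at 206, 212 and 217 CPM at 24 h, against 438, 533 and 469 CPM at 6 h (-1.18 ± 0.11). Neither gene's groups overlapped; near-identical family members, AKR1B10P1 among them, may share their reads. TXNRD1, thioredoxin reductase, fell by 0.77 ± 0.09 and ME1, malic enzyme, by 0.79 ± 0.14. HMOX1, heme oxygenase 1, was at 16.4, 13.1 and 16.2 CPM at 24 h, against 8.23, 10.2 and 6.03 CPM at 6 h, the 1 member that rose (0.90 ± 0.15). The antioxidant response element, searched as TGACNNNGC on both strands, was found in 4 of the 16 members with a promoter sequence (25%), against 11% of all promoters. TXNRD1 at chr12:104215650-104215718 (plus strand) and ME1 at chr6:83431150-83431218 (minus strand) are shown as members that fell and hold it, with the match in capitals, from RefSeq on GRCh38.p14.
TXNRD1: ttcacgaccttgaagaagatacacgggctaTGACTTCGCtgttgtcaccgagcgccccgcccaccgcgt
ME1: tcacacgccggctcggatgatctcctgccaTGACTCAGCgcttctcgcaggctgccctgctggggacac

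The time step under ISRIB was next set against that under vehicle, both without asparagine. Of 17409 genes the change was higher under ISRIB for 584 (3.35%) and lower for 738 (4.24%), 1322 in all. The total was 688, 717 and 729 without replicate 1 of 24 h, replicate 3 of 24 h and replicate 3 of 6 h with ISRIB, 727 and 693 without replicates 1 and 3 of 24 h with vehicle, and 739 and 674 without replicates 1 and 2 of 6 h with vehicle. Of the 12 core stress genes 9 were higher and 0 lower. TRIB3 averaged 101 ± 12 CPM at 24 h and 74.6 ± 11.1 CPM at 6 h under ISRIB, and 83.1 ± 9.73 CPM at 24 h and 360 ± 41.8 CPM at 6 h under vehicle (SD, n = 3 each), so its change differed by 2.56 ± 0.18 (edgeR adjusted p = 1.8e-08). DDIT4 and SESN2, at 11 and 7.96 CPM at 24 h and 55.8 and 72.7 CPM at 6 h under vehicle, differed by 3.13 ± 0.40 and 2.52 ± 0.30. ASNS, at 57.1 CPM at 24 h and 166 CPM at 6 h under vehicle, differed by 0.98 ± 0.14. The difference of ATF4, 0.65 ± 0.14, was not called after GC correction (0.42). PPP1R15A (0.61 ± 0.33), STC2 (0.46 ± 0.21) and SLC7A11 (0.07 ± 0.20) did not pass, though SLC7A11 did after GC correction (0.43).

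Of the 40 ATF4 and CHOP targets 30 were higher and 0 lower in this difference, with a median of 1.15, against -0.01 over all genes. Of all genes 3.35% were higher and 4.24% lower. GDF15, a secreted stress cytokine, differed by 2.30 ± 0.66, a call lost in 9 of the 12 fits that left out a library (1.91 to 2.79 over all 12). XBP1, a factor of the unfolded protein response chosen after its values were seen, averaged 42.9 CPM at 24 h and 169 CPM at 6 h under vehicle and differed by 2.10 ± 0.14, though its time change under ISRIB did not pass (0.13 ± 0.10). HERPUD1 differed by 1.82 ± 0.16. Of 18 FOXO and MondoA genes 6 were higher, with TSC22D3 at 2.37 ± 0.32 and KLHL24 at 1.57 ± 0.30. BANP, which binds unmethylated promoter motifs, differed by 0.89 ± 0.21.

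Genes whose change was lower under ISRIB included enzymes and receptors. HSD3B1, a steroid dehydrogenase, was at 10.3, 11.3 and 9.65 CPM at 24 h, against 45.9, 40.5 and 45.3 CPM at 6 h under ISRIB, without overlap and 4.22-fold lower at 24 h. Under vehicle it averaged 39.3 ± 3.86 CPM at 24 h and 43.1 ± 4.65 CPM at 6 h (difference -1.94 ± 0.15, edgeR adjusted p = 6.5e-08). AKR1B10 averaged 617 ± 39.5 CPM at 24 h and 628 ± 35.2 CPM at 6 h under vehicle (difference -1.65 ± 0.12). EIF5, which promotes GTP hydrolysis by eIF2 and may share reads with EIF5P1, averaged 270 ± 35.3 CPM at 24 h and 502 ± 127 CPM at 6 h under ISRIB, and 1130 ± 9.98 CPM at 24 h and 622 ± 156 CPM at 6 h under vehicle (difference -1.76 ± 0.23). TLR4, a receptor of innate immunity, and MAN1A1, a mannosidase of the Golgi, differed by -1.73 ± 0.28 and -1.69 ± 0.40. Of 23 NRF2 targets 7 were lower and 0 higher, or 4 lower without replicate 1 of 24 h with ISRIB, replicate 3 of 6 h with ISRIB, replicate 3 of 24 h with vehicle or replicate 2 of 6 h with vehicle. Over all genes 4.24% were lower and 3.35% higher.

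Last, the time step without asparagine was set against that with asparagine, both under ISRIB. It was higher without asparagine for 125 genes (0.718%) and lower for 339 (1.95%), 464 in all. This difference and the one by drug share the 6 libraries without asparagine under ISRIB, so they are not independent. The total was 223, 236 and 247 without replicate 1 of 24 h, replicate 3 of 24 h and replicate 3 of 6 h without asparagine, 295 without replicate 3 of 24 h with asparagine, and 255 and 272 without replicates 2 and 3 of 6 h with asparagine. A fit to the 4 groups alone gave 53. Of the core stress genes 1 was lower, SLC7A11 (-0.85 ± 0.20), and its call was lost in 8 settings, such as the omission of replicate 3 of 6 h without asparagine (-0.63). Its time change under ISRIB with asparagine went with means of 470 CPM at 24 h and 634 CPM at 6 h.

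HSD3B1 averaged 42.9 ± 3.27 CPM at 24 h and 42.5 ± 2.79 CPM at 6 h with asparagine, so its change differed by -2.09 ± 0.15 (edgeR adjusted p = 4.9e-08). CYP1B1, a cytochrome P450, was at 138, 111 and 114 CPM at 24 h, against 594, 685 and 560 CPM at 6 h without asparagine, 5.06-fold lower at 24 h and without overlap. With asparagine it averaged 370 ± 52.5 CPM at 24 h and 460 ± 120 CPM at 6 h (difference -2.03 ± 0.29). AKR1B10 averaged 761 ± 74.9 CPM at 24 h and 747 ± 41.5 CPM at 6 h with asparagine (-1.70 ± 0.12), and AKR1C1, MAN1A1 and SLC1A3 differed by -1.35 ± 0.16, -2.17 ± 0.40 and -1.28 ± 0.17. Of 23 NRF2 targets 6 were lower and 0 higher, or 3 lower without replicate 1 of 24 h without asparagine, replicate 3 of 24 h with asparagine, or replicates 2 or 3 of 6 h with asparagine. Over all genes 1.95% were lower and 0.718% higher. C8orf4 differed by -2.10 ± 0.51, a call lost in 8 settings (-1.62 without replicate 3 of 6 h without asparagine).

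TNFRSF10D, a decoy receptor for the ligand TRAIL, was at 26.0, 25.8 and 27.0 CPM at 24 h, against 8.01, 9.73 and 7.84 CPM at 6 h without asparagine, and was 3.07-fold higher at 24 h. With asparagine it averaged 18.7 ± 1.13 CPM at 24 h and 18.5 ± 0.375 CPM at 6 h (difference 1.6 ± 0.14, edgeR adjusted p = 5.7e-07). VGF, a neuropeptide precursor, was at 31.1, 21.1 and 24.2 CPM at 24 h, against 9.76, 10.8 and 4.54 CPM at 6 h without asparagine, and differed by 2.09 ± 0.44. EHD2, which lies at caveolae, was at 53.1, 45.2 and 63.9 CPM at 24 h, against 19.8, 19.1 and 14.1 CPM at 6 h without asparagine, and differed by 1.16 ± 0.23. None of these 3 genes had overlapping groups, but the differences of VGF and EHD2 were not called in a fit to the 4 groups alone. DNAAF3, LRRC46 and HIST1H2BK differed by 1.25 ± 0.33, 1.18 ± 0.22 and 1.14 ± 0.28, and lost their calls when the 3 libraries of most negative GC slope were omitted (0.99, 0.88 and 0.76); DNAAF3 and HIST1H2BK also lost theirs without single libraries, such as replicate 3 of 24 h with asparagine (1.04 and 1.03).

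Of 25 sterol synthesis genes 4 fell over time (16%, against 17.8% of all genes) and 2 rose (8%, against 14.5%), which is near or below the shares over all genes. With upper-quartile scaling 2 fell and 3 rose, and 8 fell after GC correction. In the differences 5 were lower and 1 higher by drug, and 6 lower and 0 higher by medium. Over all genes 4.24% were lower and 3.35% higher by drug, and 1.95% lower and 0.718% higher by medium. HMGCS1, an early enzyme of the pathway, was at 37.9, 48.1 and 31.3 CPM at 24 h, against 65.2, 83.9 and 88.2 CPM at 6 h, and averaged 75.5 CPM at 24 h and 61.2 CPM at 6 h under vehicle and 85.3 CPM at 24 h and 71.3 CPM at 6 h with asparagine. Its change differed by -1.32 ± 0.21 by drug and -1.27 ± 0.21 by medium, the second not called in a fit to the groups alone. The count by drug was 2 or 3 without 7 of the 12 libraries used: replicates 1 and 3 of 24 h and 3 of 6 h with ISRIB, and replicate 3 of 24 h and replicates 1, 2 and 3 of 6 h with vehicle. By medium it was 3 without 6 of the 12: replicates 1 and 3 of 24 h and 2 and 3 of 6 h without asparagine, replicate 3 of 24 h and replicate 2 of 6 h with asparagine.

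**Figure D4:**
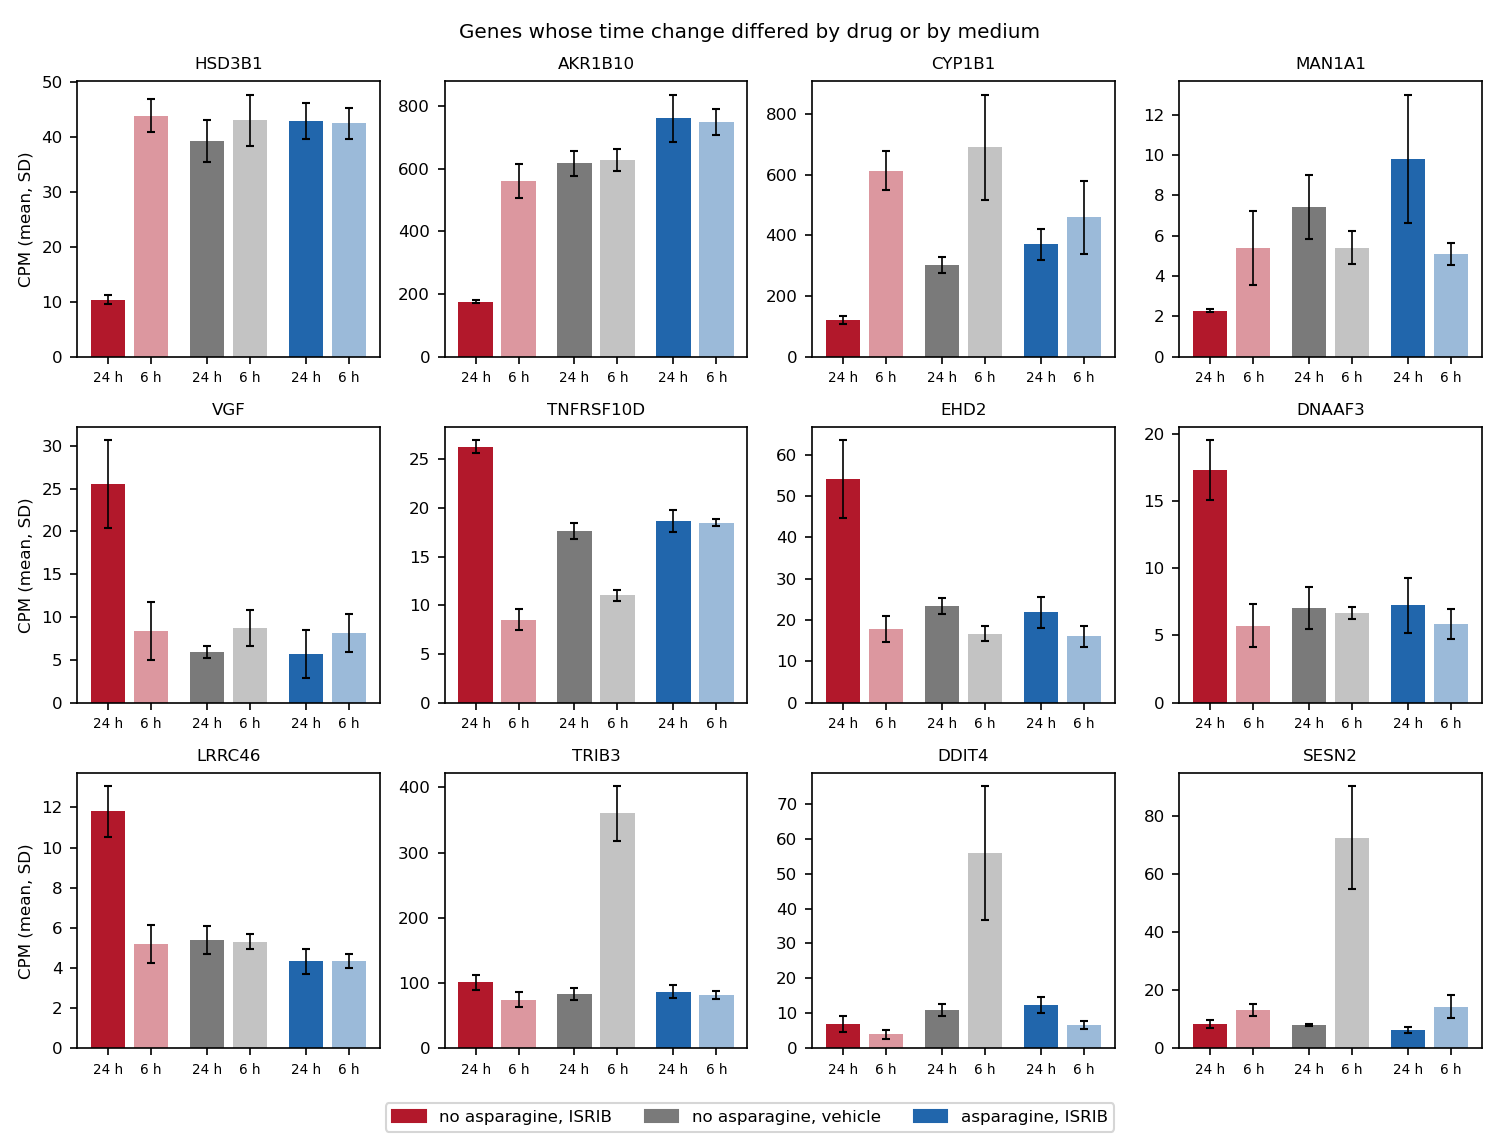
Mean CPM ± SD (n = 3) for 12 genes in 6 groups, without asparagine with ISRIB (red), without asparagine with vehicle (grey) and with asparagine with ISRIB (blue), with 24 h dark and left and 6 h light and right in each pair. HSD3B1 stands at 10.4 CPM at 24 h without asparagine with ISRIB and between 39.3 and 43.9 CPM in the other 5 groups; TRIB3 is highest at 6 h under vehicle, at 360 CPM.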

How the data were processed

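RNA from 24 PC9 libraries was sequenced, and reads were processed with Bowtie2, featureCounts and DESeq2 on hg38, per the submitters' processing notes; versions, annotation and strand setting are not given in the sources used here, so genes that overlap or lie antisense, and near-identical copies, are uncertain. The deposited counts are whole reads per gene for 37411 genes, and 0 columns lacked a sample. The deposited log2 values, transformed by the authors with a floor of 3.45, were used as a second input. GENCODE release 29 held 36620 of the identifiers and gave coordinates and gene types.

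In edgeR 4.0.16 (R 4.3.3), filterByExpr kept 17409 genes and TMM factors of 0.902 to 1.08 scaled the counts. The fit took all 24 libraries, each group having its own mean (16 residual degrees of freedom, common dispersion 0.0176). edgeR's quasi-likelihood test, with Benjamini-Hochberg adjustment over all genes at 0.05, was applied to the time change without asparagine under ISRIB and to its differences from that under vehicle and from that with asparagine. Marker sums use CPM without TMM. The fit was tested on simulated data. Library totals of 16737384 to 23271470 reads limit precision for genes of few counts.

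Genes named were 12 core stress genes, the 12 largest rises and falls among protein-coding genes called, at 5 CPM or more and without overlap, 6 each way for each difference, and up to 4 members called each way per list, with others stated as such or named to describe a count. The member of each list with the largest adjusted p was not printed, and 2 members that the rule names are not reported here. The members, the 32 lists and the rule were chosen with earlier results of these data known. Motifs were searched in 250 bases before RefSeq starts (GRCh38.p14). Same-numbered libraries of 24 h and 6 h without asparagine under ISRIB did not deviate together; all 3 numbers correlated above 0.1 in 3 of the 15 pairs among the 6 groups used, so no pairing was used. Alternatives were DESeq2 1.42.0, limma 3.58.1 on the deposited log2 values, RLE and upper-quartile scaling, other filters, the groups alone, a replicate block, GC correction, and each library left out. The omission of the 3 libraries of most negative GC slope was chosen after seeing the data, as were the kappa B motif and list counts under upper-quartile scaling.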

Additional observations from a re-analysis of the deposited data

Results flagged for a closer look

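The results below stood out because the time change without asparagine under ISRIB differed, in a test of the difference itself (edgeR's quasi-likelihood test with Benjamini-Hochberg adjustment), from the change in another group. All values are differences of log2 changes. Against vehicle, 1322 genes differed. The difference was 0.98 for ASNS, 0.65 for ATF4, 1.51 for ATF3, 1.97 for DDIT3, 3.13 for DDIT4, 2.56 for TRIB3, 4.39 for CHAC1, 2.52 for SESN2 and 2.83 for VLDLR among core stress genes. It was 0.89 for BANP, 1.57 for KLHL24, 2.37 for TSC22D3 and 2.30 for GDF15, and -2.19 for EIF5P1, -1.94 for HSD3B1, -1.76 for EIF5, -1.74 for AKR1B10P1, -1.73 for TLR4 and -1.69 for MAN1A1. EIF5P1 and AKR1B10P1 are pseudogene copies whose reads may be those of EIF5 and AKR1B10.

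Against cells with asparagine under ISRIB, 464 genes differed. The difference was -0.85 for SLC7A11, -2.10 for C8orf4, -2.09 for HSD3B1, -1.61 for AKR1B10P1, -2.17 for MAN1A1, -2.03 for CYP1B1 and -1.70 for AKR1B10. It was 2.09 for VGF, 1.6 for TNFRSF10D, 1.25 for DNAAF3, 1.18 for LRRC46, 1.16 for EHD2 and 1.14 for HIST1H2BK.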

How the results depend on the processing

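The time change called 3365 genes in a fit to its 2 groups alone and 1425 at 2-fold or more, and 4114 to 5654 with each library left out, against 5622. The difference by drug called 2766 after GC correction, 3424 with the replicate block added to it, 2185 without a filter and 343 at 2-fold, and 674 to 1686 with each library left out, against 1322. The difference by medium called 875 with DESeq2, 1427 after GC correction, 1873 with the block added, 53 (5 higher, 48 lower) for the groups alone, 920 without a filter, 290 with the 3 libraries of lowest GC slope omitted (chosen after seeing the data) and 139 at 2-fold, and 223 to 641 with each library left out, against 464. Other settings moved these counts by less than 1.5 times.

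Same-numbered deviations at 24 h and 6 h without asparagine under ISRIB correlated at 0.234, -0.348 and -0.191. They did so above 0.1 for all 3 numbers in 3 of 15 pairs of groups: 6 h without asparagine under ISRIB with 6 h under vehicle (0.327, 0.363 and 0.47), and 24 h with asparagine with each of these (0.407, 0.408 and 0.659 for ISRIB, 0.116, 0.238 and 0.409 for vehicle). The numbers thus did not pair all groups of any comparison; a replicate block gave 6084, 1779 and 671 genes. Directions that turned were the time change of CHAC1, 0.11 with limma on the deposited values, 0.03 with upper-quartile scaling and -0.54 to 0.27 with each library left out, and the drug difference of SLC7A11 (-0.05 to 0.29 with each library left out), neither called in the main comparison; the difference of SLC7A11 was 0.43 and called after GC correction, with or without the block. Of single-gene values 6787 kept direction and call, 784 lost the call, 16 gained it and 9 turned; of list counts 2345 stayed within 1.5 times and 535 did not. Causes were not tested. Genes of few counts, such as CHAC1 and VLDLR, are limited by depth.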
